A study of Homo sapiens with 24 samples.

Results

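Of the 26475 gene symbols counted in each library, 45 genes of mitosis and the mitotic spindle were followed through all 8 treatments of HepG2, a human hepatocellular carcinoma cell line. They were taken by symbol from a list of cyclins, mitotic kinases, checkpoint and kinetochore proteins, kinesins, spindle proteins, cytokinesis factors and chromosome proteins, and all 45 were present in the files. The cells received the solvent DMSO, 50 nM of ABBV-075, ABBV-744 at either 50 or 500 nM, interferon gamma (IFNg), or IFNg together with each of those 3 inhibitor treatments, with 3 libraries a group and 24 in all. ABBV-075 and ABBV-744 are inhibitors of the bromodomain and extra-terminal (BET) proteins, which bind acetylated histones. A treatment time of 12 h is given for ABBV-075, and the study's methods list DMSO with treatments of 24 h. Neither the IFNg dose nor the times of ABBV-744 and IFNg are given in the sources used here. Agent and treatment time therefore cannot be told apart. All groups are of 1 cell line, and the study's methods call only the DMSO and ABBV-075 libraries independent samples, so for the others a p-value measures the spread between libraries, which may be technical.

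Mitosis is driven by CDK1 with its cyclins and by the Aurora and Polo kinases. Kinesin motors and microtubule-binding proteins build the spindle, kinetochores tie chromosomes to it, and the spindle assembly checkpoint holds back the anaphase-promoting complex (APC/C) until every chromosome is attached. Most of these genes are transcribed late in the cell cycle, and their messages fall when cells leave it. In bulk RNA, fewer cells in mitosis and less RNA per cell cannot be told apart.

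Reads counted on genes ranged from 2978982 to 4304103 per library, and the 45 genes together took 0.318% to 0.628% of them. Levels are given in CPM, the counts of a gene scaled by the total on genes in its library after adjustment by the library's TMM factor. Hepatocyte markers summed to 69880 to 116012 counts per library and 9 markers of blood, endothelial and stromal cells to 31 to 93, with 5 of the 9 at 3 counts or fewer in every library and 4 at 0. The highest of the 9 was ACTA2, with 27 to 84 counts per library. HEXIM1, which BET inhibitors are known to induce, rose with ABBV-075 (log2 fold change 1.41 ± 0.12 over DMSO and 1.51 ± 0.11 over IFNg alone, edgeR adjusted p = 6.81e-06 and 2.47e-14) and with ABBV-744 at 500 nM (0.74 ± 0.11 and 0.58 ± 0.12, edgeR adjusted p = 1.89e-05 and 0.000121), but ABBV-744 at 50 nM did not pass the test (0.29 ± 0.12 and 0.09 ± 0.13, edgeR adjusted p = 0.0816 and 0.565). SERPINI1, also used here as a check gene of BET inhibition, rose with ABBV-075 (2.12 ± 0.31 and 2.74 ± 0.26, edgeR adjusted p = 0.000281 and 1.54e-11). With ABBV-744 it did not pass the test over DMSO at 50 or 500 nM (-0.01 ± 0.35 and 0.59 ± 0.31, edgeR adjusted p = 0.988 and 0.204), and rose over IFNg alone at both doses (1.78 ± 0.28 and 1.87 ± 0.30, edgeR adjusted p = 3.12e-06 and 4.47e-06). ABBV-075 replicate 3 stood apart from the other libraries of its group, as described below for single genes, and its 3 main counts of calls are given with and without it.

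With IFNg present, each inhibitor split the 45 genes into a larger set that was upregulated and a smaller one that was downregulated. The first set was led by kinesins, kinetochore proteins and condensin subunits such as CENPE, KIF14, KIF20B and SMC4. The second was led by PLK1 and NCAPD2. A gene is said to have risen or fallen at an adjusted p of at most 0.05 over all genes tested, and fold changes are on the log2 scale, the first group over the second. For ABBV-744 at 50 nM with IFNg against IFNg alone, 24 of 45 rose and 9 fell, where 27.4% and 24.3% of all genes tested did so. As shares of the 45 genes, 53.3% rose and 20% fell, so that the share of rises lay above that of all genes and the share of falls below it. That was also the case for the 2 other inhibitor treatments over IFNg alone, whose counts follow.

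ABBV-744 at 500 nM with IFNg gave 23 higher and 8 lower, beside 22.9% and 22.8% of all genes. ABBV-075 with IFNg gave 22 higher and 8 lower, beside 28.2% and 28.4% of all genes. These 3 comparisons share the IFNg libraries, so their likeness is no independent evidence. The median log2 fold change of the 45 genes was 0.39, 0.32 and 0.42 in that order. The libraries of both groups did not overlap for 35, 35 and 33 genes, beside 58.1%, 52% and 60.8% of all genes. With the study's further limit on the fold change, 1.5 on the log2 scale, 11, 11 and 12 genes were upregulated, beside 1.94%, 1.29% and 2.41% of all genes.

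Without IFNg, ABBV-075 against DMSO raised 20 of 45 and lowered 5, beside 19.8% and 19.6% of all genes, with a median of 0.43. Without ABBV-075 replicate 3 the numbers were 24 and 7, with a median of 0.50. ABBV-744 at 50 nM against DMSO raised 1 of the 44 genes tested and lowered 9, beside 8.81% and 10.1% of all genes, with a median of -0.19. KIF18A was too low to be tested there. ABBV-744 at 500 nM raised 2 of 45, beside 7.48% of all genes, and lowered none by edgeR or DESeq2, beside 7.8%, with 9 genes at an unadjusted p of at most 0.05 in either direction. IFNg alone raised 1, beside 2.76% of all genes, and lowered none by edgeR or DESeq2, beside 0.695%, with 8 genes at an unadjusted p of at most 0.05.

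**Figure D1:**
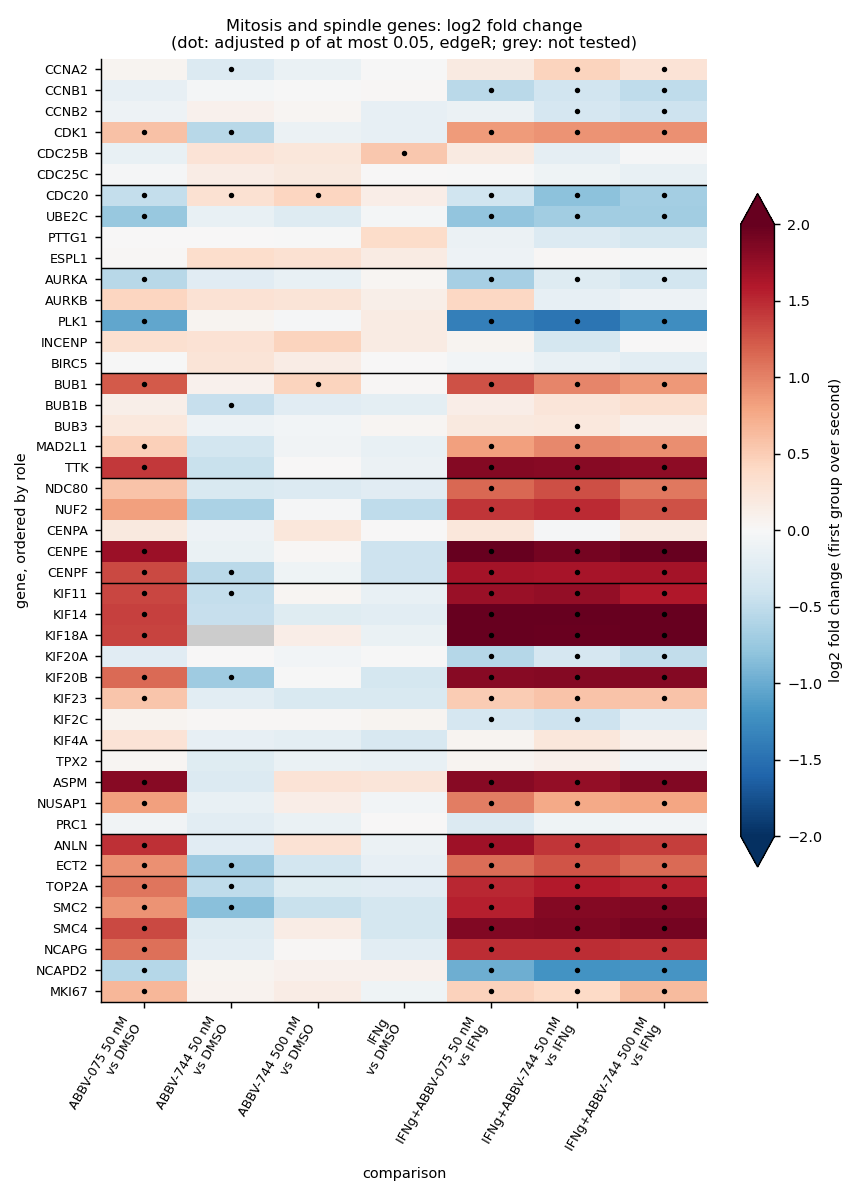
Log2 fold change of each of the 45 genes (rows, ordered by role with lines between roles) in 7 comparisons (columns), coloured from blue (lower in the first group) to red (higher), with colours ending at 2 in either direction. Black dots mark an adjusted p of at most 0.05 by edgeR, and the grey cell was not tested. The 3 comparisons over IFNg alone hold 22 to 24 higher and 8 or 9 lower genes, and IFNg over DMSO holds 1.

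The genes that rose and those that fell were found side by side within single complexes, and their promoters are printed to show what the windows of such genes hold. CENPE and KIF20B stand for the genes that rose, PLK1 for those that fell, and SMC2 and NCAPD2 are subunits of condensin, the complex that compacts chromosomes, that moved in opposite directions. They were chosen after their values were seen. Each window is from RefSeq (GRCh38.p14), runs from 250 bases before to 50 bases after the gene's start, and is written 5′ to 3′ on the gene's strand. Capitals mark the motifs searched on both strands, which are the cell cycle homology region (CHR, TTTGAA or TTCGAA), the CCAAT box (CCAAT, or ATTGG on the other strand) and the E-box CACGTG.
CENPE, chr4:103198294-103198593, strand -: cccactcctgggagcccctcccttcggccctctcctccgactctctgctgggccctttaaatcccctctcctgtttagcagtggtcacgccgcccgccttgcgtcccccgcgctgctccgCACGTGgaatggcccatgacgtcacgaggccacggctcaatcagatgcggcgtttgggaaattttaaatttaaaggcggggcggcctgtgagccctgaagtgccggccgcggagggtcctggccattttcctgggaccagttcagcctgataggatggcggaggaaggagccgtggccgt
KIF20B, chr10:89701340-89701639, strand +: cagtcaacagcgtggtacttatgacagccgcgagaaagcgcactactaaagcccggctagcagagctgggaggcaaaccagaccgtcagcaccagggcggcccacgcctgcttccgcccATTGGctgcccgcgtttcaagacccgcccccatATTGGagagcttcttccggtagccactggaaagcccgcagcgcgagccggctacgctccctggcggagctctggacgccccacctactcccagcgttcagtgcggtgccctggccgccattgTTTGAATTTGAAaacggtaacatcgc
SMC2, chr9:104094059-104094358, strand +: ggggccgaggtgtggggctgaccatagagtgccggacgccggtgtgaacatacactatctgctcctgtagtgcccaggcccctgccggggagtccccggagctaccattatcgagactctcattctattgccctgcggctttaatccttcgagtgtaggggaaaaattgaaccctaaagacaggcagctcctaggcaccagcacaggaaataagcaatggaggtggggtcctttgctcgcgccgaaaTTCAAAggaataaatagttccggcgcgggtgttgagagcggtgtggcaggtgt
NCAPD2, chr12:6493852-6494151, strand +: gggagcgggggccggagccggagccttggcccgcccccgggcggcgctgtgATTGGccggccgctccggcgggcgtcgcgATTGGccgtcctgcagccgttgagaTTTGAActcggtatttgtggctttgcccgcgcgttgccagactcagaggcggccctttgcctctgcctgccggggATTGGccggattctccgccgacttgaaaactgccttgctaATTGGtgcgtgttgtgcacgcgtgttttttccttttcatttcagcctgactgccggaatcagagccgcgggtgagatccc
PLK1, chr16:23678639-23678938, strand +: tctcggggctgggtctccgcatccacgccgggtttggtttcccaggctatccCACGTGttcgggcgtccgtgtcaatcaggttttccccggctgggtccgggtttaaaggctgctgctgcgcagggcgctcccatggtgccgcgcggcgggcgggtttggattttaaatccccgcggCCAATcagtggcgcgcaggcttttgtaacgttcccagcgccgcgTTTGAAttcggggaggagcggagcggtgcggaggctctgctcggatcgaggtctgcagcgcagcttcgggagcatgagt

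A window was found for 39 of the 45 genes, and not for UBE2C, AURKA, BIRC5, BUB3, TTK and TPX2. The CHR in either form was present in 30 of 39 windows (76.9%), beside 16.6% of 27305 windows of all genes. A CCAAT box was present in 28 (71.8%), beside 35.7%, and the E-box in 5 (12.8%), beside 7.43%. In 2 of the 39 windows matches of these motifs overlapped one another. Of the genes that rose with ABBV-744 at 50 nM over IFNg alone, 22 had a window and 20 of those held a CHR. Of those that fell, 7 had a window and 4 held one. Among the genes that neither rose nor fell, 10 had a window and 6 held a CHR. CCAAT was found in 15 of the 22, 6 of the 7 and 7 of the 10. The difference between these sets was not tested. In the windows printed above, CENPE held only an E-box, while KIF20B held a pair of adjoining CHR matches after the start and PLK1 held a CHR, a CCAAT box and an E-box before it. A match is a stretch of letters and says nothing on which factors bind there.

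Per kilobase of the longest transcript, the most abundant of the genes in DMSO were AURKA (144 CPM per kb), CCNB1 (135), TPX2 (110.5), UBE2C (109) and BIRC5 (95.2). The lowest were NUF2 (2.41), ASPM (2.24), CENPE (1.33) and KIF18A (0.952). The 4 lowest all rose with every inhibitor over IFNg alone, while ESPL1 and INCENP, also in the lower part of the order, did not pass the test. PLK1 (33.3), NCAPD2 (37.5) and CDC20 (67.1), which fell, lay in its upper part, and so did TOP2A (55.3), which rose.

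Among CDK1, its cyclins and the CDC25 phosphatases, which remove the inhibitory phosphates of CDK1, CDK1 itself rose and cyclin B1 fell. CDK1 stood without IFNg at 75.5, 83.9 and 77.6 CPM in DMSO, 148, 117 and 98 with ABBV-075, 62.7, 44.3 and 53.3 with ABBV-744 at 50 nM and 78.3, 59 and 80.2 at 500 nM. It stood with IFNg alone at 79.9, 69.6 and 60.9 CPM, 139.6, 123 and 121 with ABBV-075 added, 138, 127 and 124 with ABBV-744 at 50 nM and 158, 137 and 111 at 500 nM. The 9 libraries with IFNg and an inhibitor all lay above the 3 with IFNg alone. Over IFNg alone its log2 fold change was 0.85 ± 0.11 (SE, edgeR adjusted p = 3.53e-08) with ABBV-075, 0.90 ± 0.10 (SE, edgeR adjusted p = 7.74e-09) with ABBV-744 at 50 nM and 0.92 ± 0.12 (SE, edgeR adjusted p = 1.88e-07) at 500 nM. Over DMSO, CDK1 rose with ABBV-075 (0.59 ± 0.15, edgeR adjusted p = 0.00751) and fell with ABBV-744 at 50 nM (-0.55 ± 0.12, edgeR adjusted p = 0.00307). With a correction for GC content, described below, CDK1 did not pass the test with ABBV-744 at 50 nM over IFNg alone (0.06, edgeR adjusted p = 0.608), nor over DMSO with ABBV-075 (0.17, edgeR adjusted p = 0.146) or ABBV-744 at 50 nM (-0.20, edgeR adjusted p = 0.174). It kept its rise over IFNg alone with ABBV-075 and with ABBV-744 at 500 nM, at 0.22 and 0.24 (edgeR adjusted p = 0.0199 and 0.0323).

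CCNB1, the cyclin that activates CDK1 at the entry into mitosis, stood without IFNg at 273, 278 and 269 CPM in DMSO, 200.4, 239.8 and 299 with ABBV-075, 230.0, 282 and 275 with ABBV-744 at 50 nM and 270.2, 259 and 284 at 500 nM. In the 3 libraries with IFNg alone it had 311, 275 and 244 CPM, 199, 204 and 174 with ABBV-075 added, 192, 230.4 and 209 with ABBV-744 at 50 nM and 195, 211 and 185 at 500 nM. Without IFNg every treated group overlapped DMSO, and with IFNg every inhibitor library lay below the 3 of IFNg alone. CCNB1 fell over IFNg alone by 0.54 ± 0.10 with ABBV-075, 0.38 ± 0.09 with ABBV-744 at 50 nM and 0.51 ± 0.10 at 500 nM on the log2 scale (edgeR adjusted p = 1.01e-05, 0.000644 and 5.85e-05). CCNB2 fell with the 2 ABBV-744 doses over IFNg alone (-0.34 and -0.42, edgeR adjusted p = 0.00691 and 0.00331), and had -0.12 with ABBV-075 (edgeR adjusted p = 0.37). CCNA2, the cyclin of S phase and early mitosis, rose with those 2 doses (0.44 and 0.27, edgeR adjusted p = 8.5e-05 and 0.0261) and fell with ABBV-744 at 50 nM over DMSO (-0.27, edgeR adjusted p = 0.0439).

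CDC25B was the 1 gene of the 45 past the test for IFNg alone. It stood without IFNg at 51.6, 53.8 and 40.1 CPM in DMSO, 32.7, 47 and 53.2 with ABBV-075, 58.5, 56.8 and 59.3 with ABBV-744 at 50 nM and 58, 55.1 and 56.6 at 500 nM. With IFNg and no inhibitor CDC25B had 60.1, 71.4 and 78.9 CPM, 77.5, 80.8 and 81.7 with ABBV-075 added, 60.1, 64.1 and 58.9 with ABBV-744 at 50 nM and 75.5, 66.3 and 68.5 at 500 nM. Each IFNg library lay above each DMSO library, and the inhibitor groups with IFNg overlapped IFNg alone. Its log2 fold change with IFNg was 0.54 ± 0.12 (SE, edgeR adjusted p = 0.00333). Without the GC correction, no inhibitor passed the test for CDC25B with or without IFNg. CDC25C passed the test in none of the 7 comparisons, with log2 fold changes between -0.14 and 0.20.

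Without the GC correction, the genes of the APC/C and of sister chromatid separation did not rise with any inhibitor over IFNg alone. With it, 1 of these 4 genes passed the test as a rise with ABBV-744 at 50 nM. CDC20, which activates the APC/C, stood without IFNg at 129.8, 113 and 115 CPM in DMSO, 78.4, 79.1 and 105 with ABBV-075, 139, 149 and 147 with ABBV-744 at 50 nM and 152, 166 and 159 at 500 nM. Its values under IFNg alone were 131, 127 and 133 CPM, 89.2, 108 and 105 with ABBV-075 added, 68.3, 84.7 and 66.4 with ABBV-744 at 50 nM and 77.9, 87 and 82.9 at 500 nM. Without IFNg the ABBV-075 libraries lay below DMSO and those of both ABBV-744 doses above it, while with IFNg all 9 inhibitor libraries lay below IFNg alone. CDC20 rose with ABBV-744 over DMSO, with 0.30 ± 0.10 (SE, edgeR adjusted p = 0.0334) at 50 nM and 0.42 ± 0.10 (SE, edgeR adjusted p = 0.00281) at 500 nM. It fell with the same doses over IFNg alone, with -0.83 ± 0.10 (SE, edgeR adjusted p = 2.26e-08) and -0.68 ± 0.10 (SE, edgeR adjusted p = 1.68e-06). With ABBV-075 it fell by 0.47 ± 0.14 over DMSO and by 0.40 ± 0.10 over IFNg alone (edgeR adjusted p = 0.0197 and 0.00128).

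UBE2C, the ubiquitin-conjugating enzyme of the APC/C, stood without IFNg at 99.7, 101 and 99 CPM in DMSO, 50.8, 64.5 and 63.7 with ABBV-075, 82.3, 95.4 and 89.7 with ABBV-744 at 50 nM and 76.9, 89.4 and 82.5 at 500 nM. It stood with IFNg alone at 95.1, 101 and 95.3 CPM, 52.4, 62.8 and 55.2 with ABBV-075 added, 58.4, 55.6 and 63.9 with ABBV-744 at 50 nM and 61.5, 58 and 62.6 at 500 nM. All libraries with ABBV-075, and all those with an inhibitor and IFNg, lay below their controls. For ABBV-075 over DMSO its log2 fold change was -0.77 ± 0.13 (SE, edgeR adjusted p = 0.000885). Over IFNg alone it was -0.79, -0.70 and -0.70 for ABBV-075, ABBV-744 at 50 nM and ABBV-744 at 500 nM (edgeR adjusted p = 2.11e-07, 6.42e-07 and 3e-06). Securin (PTTG1) holds back separase (ESPL1), which cuts the link between sister chromatids. Without the GC correction PTTG1 and ESPL1 passed the test in none of the 7 comparisons, with values from -0.36 to 0.37 and from -0.10 to 0.36.

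Among the Aurora and Polo kinases and the chromosomal passenger proteins, PLK1, the kinase of centrosome maturation and mitotic entry, had the lowest log2 fold changes of all 45 genes with ABBV-075 and with every inhibitor over IFNg alone. PLK1 stood without IFNg at 156, 138 and 119.6 CPM in DMSO, 59.9, 67.6 and 76.4 with ABBV-075, 144, 144 and 135 with ABBV-744 at 50 nM and 112, 159 and 136 at 500 nM. In the 3 libraries with IFNg alone it had 122, 164 and 176 CPM, 54.2, 54.1 and 73.8 with ABBV-075 added, 57.9, 55.3 and 52.6 with ABBV-744 at 50 nM and 61.8, 70.4 and 66 at 500 nM. The ABBV-075 libraries without IFNg and all 9 with IFNg and an inhibitor lay below every other library. PLK1 had -1.04 ± 0.14 (SE, edgeR adjusted p = 0.000192) for ABBV-075 over DMSO. Over IFNg alone PLK1 fell by 1.36 ± 0.13 with ABBV-075, 1.46 ± 0.11 with ABBV-744 at 50 nM and 1.24 ± 0.12 at 500 nM (edgeR adjusted p = 1.1e-11, 1.19e-12 and 4.83e-10), to levels 2.57, 2.75 and 2.36 times lower. ABBV-744 without IFNg gave 0.05 ± 0.10 at 50 nM and -0.02 ± 0.11 at 500 nM (edgeR adjusted p = 0.758 and 0.939).

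AURKA, the kinase of the spindle poles, stood without IFNg at 320.0, 334 and 321 CPM in DMSO, 212, 206 and 256 with ABBV-075, 252, 290.1 and 283 with ABBV-744 at 50 nM and 303, 275 and 298 at 500 nM. With IFNg and no inhibitor AURKA had 359, 328 and 308 CPM, 216, 199 and 219.7 with ABBV-075 added, 265, 294 and 269 with ABBV-744 at 50 nM and 287, 256 and 245 at 500 nM. Each inhibitor group lay below its control without overlap, with and without IFNg. AURKA fell with ABBV-075 by 0.55 ± 0.12 over DMSO and 0.67 ± 0.09 over IFNg alone (edgeR adjusted p = 0.00293 and 5.89e-08). With ABBV-744 it fell over IFNg alone by 0.25 ± 0.08 at 50 nM and 0.36 ± 0.09 at 500 nM (edgeR adjusted p = 0.00932 and 0.0013), and over DMSO it did not pass the test (-0.22 and -0.15, edgeR adjusted p = 0.0923 and 0.254). The chromosomal passenger complex, AURKB with INCENP and BIRC5 (survivin), passed the test in none of the 7 comparisons without the GC correction, and some of its members passed it with the correction, as given below. INCENP, a gene with GC content (58.8%) among the highest of the 45, stood without IFNg at 19.9, 16.5 and 17.4 CPM in DMSO, 19.7, 24.4 and 24.4 with ABBV-075, 21.1, 21.8 and 22.2 with ABBV-744 at 50 nM and 26.1, 21.5 and 24.7 at 500 nM. Its values under IFNg alone were 18.4, 18.8 and 22.5 CPM, 22.1, 22.6 and 18.1 with ABBV-075 added, 17.3, 17.2 and 11.9 with ABBV-744 at 50 nM and 23.1, 22.2 and 15.7 at 500 nM, with log2 fold changes between -0.35 and 0.44.

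Within the spindle assembly checkpoint, the kinases BUB1 and TTK and the adaptor MAD2L1 rose and BUB1B did not rise. BUB1 stood without IFNg at 123, 136 and 133 CPM in DMSO, 368, 294 and 271 with ABBV-075, 141, 119 and 148 with ABBV-744 at 50 nM and 194, 149 and 184 at 500 nM. It stood with IFNg alone at 136, 136 and 124 CPM, 360.0, 302 and 308 with ABBV-075 added, 274, 242 and 254 with ABBV-744 at 50 nM and 260.4, 254 and 224 at 500 nM. All libraries with ABBV-075, and all with IFNg and an inhibitor, lay above every library of DMSO, of IFNg alone and of ABBV-744 without IFNg. The log2 fold change with ABBV-075 was 1.23 ± 0.13 (SE, edgeR adjusted p = 2.99e-05) over DMSO and 1.28 ± 0.09 (SE, edgeR adjusted p = 3.25e-14) over IFNg alone. It was 0.97 ± 0.08 and 0.87 ± 0.09 for the 2 ABBV-744 doses over IFNg alone (edgeR adjusted p = 2.33e-11 and 4.9e-09), and BUB1 also rose with 500 nM over DMSO (0.44 ± 0.10, edgeR adjusted p = 0.00283). TTK, the kinase also known as MPS1, had log2 fold changes of 1.42 over DMSO and 1.84 over IFNg alone with ABBV-075, and 1.82 and 1.79 with ABBV-744 over IFNg alone. MAD2L1 rose by 0.47 with ABBV-075 over DMSO and by 0.81, 0.96 and 0.92 over IFNg alone. BUB1B passed the test only as a fall with ABBV-744 at 50 nM over DMSO (-0.47, edgeR adjusted p = 0.0468), and BUB3 only as a rise of 0.20 with the same dose over IFNg alone (edgeR adjusted p = 0.0417).

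At the kinetochore, the motor CENPE, the large scaffold CENPF and the NDC80 complex subunits NDC80 and NUF2 rose over IFNg alone with every inhibitor. CENPA, the histone variant of centromeres, passed the test in none of the 7 comparisons without the GC correction. CENPE stood without IFNg at 12.8, 9.59 and 12.7 CPM in DMSO, 58.2, 42.4 and 15 with ABBV-075, 11.3, 6.55 and 13.6 with ABBV-744 at 50 nM and 13.3, 7.69 and 14.1 at 500 nM. In the 3 libraries with IFNg alone it had 8.4, 8.81 and 8.89 CPM, 56.4, 40.8 and 37.4 with ABBV-075 added, 39.2, 24.8 and 33.2 with ABBV-744 at 50 nM and 36.1, 43.5 and 26.7 at 500 nM. With IFNg and an inhibitor all 9 libraries lay above the 3 of IFNg alone, while ABBV-075 replicate 3 lay just above the DMSO libraries. The log2 fold change over IFNg alone was 2.35 ± 0.19 (SE, edgeR adjusted p = 2.2e-13) with ABBV-075, 1.91 ± 0.19 (SE, edgeR adjusted p = 2.98e-10) with ABBV-744 at 50 nM and 2.00 ± 0.20 (SE, edgeR adjusted p = 8.47e-10) at 500 nM, which is 5.11, 3.77 and 4-fold. Over DMSO it was 1.72 ± 0.37 (SE, edgeR adjusted p = 0.00307) with ABBV-075, and ABBV-744 gave -0.13 at 50 nM and 0.03 at 500 nM (edgeR adjusted p = 0.731 and 0.951).

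CENPF stood without IFNg at 39.9, 41.9 and 36.3 CPM in DMSO, 139.6, 98.5 and 59.8 with ABBV-075, 31.2, 23.4 and 25.7 with ABBV-744 at 50 nM and 40.9, 29.5 and 40.5 at 500 nM. With IFNg and no inhibitor CENPF had 29, 30.5 and 28.6 CPM, 118, 79.7 and 85 with ABBV-075 added, 115, 63.8 and 92.4 with ABBV-744 at 50 nM and 120.0, 87.6 and 79.2 at 500 nM. The 3 ABBV-744 libraries at 50 nM without IFNg lay below DMSO, and all inhibitor libraries with IFNg lay above IFNg alone. CENPF rose with ABBV-075 over DMSO (1.32 ± 0.24, edgeR adjusted p = 0.00111) and fell with ABBV-744 at 50 nM (-0.54 ± 0.15, edgeR adjusted p = 0.0117). Over IFNg alone it rose by 1.67, 1.64 and 1.67 with ABBV-075 and the 2 doses of ABBV-744 (edgeR adjusted p = 6.43e-13, 5.2e-11 and 1.83e-11). Over IFNg alone NDC80 rose by 1.15, 1.28 and 1.06 and NUF2 by 1.43, 1.49 and 1.27 in the same order, and neither passed the test with ABBV-075 over DMSO (0.57 and 0.82, edgeR adjusted p = 0.0911 and 0.0806). NUF2 was low, with 7 to 63 counts per library. It stood at 1.90, 3.52 and 4.45 CPM with IFNg alone and 15.7, 4.35 and 6.33 with ABBV-075 added, so those groups overlapped. The ABBV-744 libraries with IFNg lay above IFNg alone for NUF2.

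Of the 8 kinesin motors, KIF11, KIF14, KIF18A, KIF20B and KIF23 rose with every inhibitor over IFNg alone, KIF20A fell and KIF4A did not pass the test. KIF11, the motor that pushes spindle poles apart, stood without IFNg at 61.2, 63.6 and 54.4 CPM in DMSO, 209.6, 158 and 91.4 with ABBV-075, 55.6, 32.8 and 38.4 with ABBV-744 at 50 nM and 76.9, 53.2 and 53.7 at 500 nM. Its values under IFNg alone were 52.3, 60.5 and 47.8 CPM, 192, 178 and 168 with ABBV-075 added, 183, 162 and 192 with ABBV-744 at 50 nM and 183, 168 and 148 at 500 nM. The 9 inhibitor libraries with IFNg lay above all 3 of IFNg alone. KIF11 rose over IFNg alone by 1.73 ± 0.11 with ABBV-075, 1.76 ± 0.10 with ABBV-744 at 50 nM and 1.61 ± 0.11 at 500 nM (edgeR adjusted p = 5.3e-16, 4.85e-15 and 8.02e-13). It rose with ABBV-075 over DMSO (1.34 ± 0.23, edgeR adjusted p = 0.000812) and fell with ABBV-744 at 50 nM (-0.48 ± 0.14, edgeR adjusted p = 0.0215), although 1 of those libraries lay within the range of DMSO.

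KIF20B, a kinesin of cytokinesis whose transcript had the lowest GC content of the 45 (34.3%), stood without IFNg at 49.7, 47.1 and 52.5 CPM in DMSO, 188, 94.3 and 49.9 with ABBV-075, 34.8, 22.1 and 32.7 with ABBV-744 at 50 nM and 60.4, 29.8 and 56.3 at 500 nM. It stood with IFNg alone at 41.2, 35.2 and 39.5 CPM, 157, 123 and 135 with ABBV-075 added, 168, 102 and 141 with ABBV-744 at 50 nM and 144, 136 and 142 at 500 nM. ABBV-075 replicate 3 lay within the DMSO range, so those groups overlapped, and all inhibitor libraries with IFNg lay above IFNg alone. The log2 fold change over DMSO was 1.14 ± 0.33 (SE, edgeR adjusted p = 0.017) with ABBV-075 and -0.72 ± 0.14 (SE, edgeR adjusted p = 0.00137) with ABBV-744 at 50 nM. Over IFNg alone it was 1.82 ± 0.12 (SE, edgeR adjusted p = 1.21e-15), 1.84 ± 0.13 (SE, edgeR adjusted p = 3.02e-13) and 1.84 ± 0.11 (SE, edgeR adjusted p = 5.21e-14) for ABBV-075, ABBV-744 at 50 nM and ABBV-744 at 500 nM. With ABBV-075 over DMSO, KIF14, which acts in cytokinesis, rose by 1.37 and KIF18A, which dampens chromosome movement, by 1.36. For KIF18A, ABBV-075 replicate 3 had 3.91 CPM, within the DMSO range of 1.60 to 5.49. KIF14 had values over IFNg alone of 2.06, 2.04 and 2.01, and KIF18A 2.18, 1.98 and 2.05. KIF23, a motor of the central spindle, rose by 0.50, 0.56 and 0.56. KIF20A, also a motor of cytokinesis, fell by 0.58 ± 0.12, 0.33 ± 0.11 and 0.49 ± 0.12 in the same order (edgeR adjusted p = 8.88e-05, 0.011 and 0.00137). KIF2C, a microtubule depolymerase, fell with ABBV-075 and ABBV-744 at 50 nM over IFNg alone (-0.34 and -0.42, edgeR adjusted p = 0.0305 and 0.00437).

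Of the spindle proteins, ASPM and NUSAP1 rose and TPX2 and PRC1 passed the test in none of the 7 comparisons without the GC correction. TPX2, which activates AURKA on the spindle, stood without IFNg at 374, 426 and 394 CPM in DMSO, 434, 414 and 395 with ABBV-075, 323, 319.7 and 358 with ABBV-744 at 50 nM and 379, 330.3 and 371 at 500 nM. In the 3 libraries with IFNg alone it had 361, 355 and 353 CPM, 388, 362 and 376 with ABBV-075 added, 375, 379 and 377 with ABBV-744 at 50 nM and 351, 343 and 344 at 500 nM. Its log2 fold changes lay between -0.24 and 0.09, although the groups with IFNg and an inhibitor did not overlap IFNg alone. ASPM, a protein of the spindle poles, had the largest log2 fold change of the 45 with ABBV-075 over DMSO of 1.83 ± 0.27 (SE, edgeR adjusted p = 0.000316), and over IFNg alone it had 1.82, 1.76 and 1.85 with ABBV-075 and the 2 ABBV-744 doses. NUSAP1, which bundles spindle microtubules, rose by 0.82 with ABBV-075 over DMSO and by 1.02, 0.76 and 0.79 over IFNg alone, although its GC content of 48.3% was above the median of the 45.

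Both cytokinesis factors rose. ANLN (anillin), a scaffold of the contractile ring, stood without IFNg at 97.4, 109 and 113 CPM in DMSO, 397, 299 and 195 with ABBV-075, 107, 68.3 and 94.8 with ABBV-744 at 50 nM and 147, 108 and 133 at 500 nM. With IFNg and no inhibitor ANLN had 104, 102 and 87 CPM, 351, 315 and 296 with ABBV-075 added, 272, 242 and 273 with ABBV-744 at 50 nM and 299.8, 256 and 221 at 500 nM. All libraries with ABBV-075 lay above every DMSO library, and all those with IFNg and an inhibitor lay above IFNg alone. ANLN rose by 1.46 ± 0.20 with ABBV-075 over DMSO (edgeR adjusted p = 0.000199). Over IFNg alone it rose by 1.70 ± 0.10, 1.43 ± 0.09 and 1.38 ± 0.11 with ABBV-075, ABBV-744 at 50 nM and ABBV-744 at 500 nM (edgeR adjusted p = 4.04e-17, 1.9e-14 and 5.18e-12). ECT2, which activates RhoA at the division plane, rose by 0.91 with ABBV-075 over DMSO, by 1.11, 1.25 and 1.13 over IFNg alone, and fell by 0.73 ± 0.15 with ABBV-744 at 50 nM over DMSO (edgeR adjusted p = 0.00132). For ECT2, ABBV-075 replicate 3 had 50.2 CPM, within the DMSO range of 43.6 to 50.6, beside 131 and 91.7 in replicates 1 and 2.

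Chromosome proteins held both the rises and a fall. TOP2A, the topoisomerase that untangles sister chromatids, stood without IFNg at 280.4, 341 and 323 CPM in DMSO, 955, 704 and 356 with ABBV-075, 289, 156 and 214 with ABBV-744 at 50 nM and 329.6, 194 and 270.2 at 500 nM. Its values under IFNg alone were 292, 296 and 216 CPM, 865, 736 and 716 with ABBV-075 added, 815, 775 and 807 with ABBV-744 at 50 nM and 867, 822 and 701 at 500 nM. The inhibitor libraries with IFNg all lay above those with IFNg alone. TOP2A rose by 1.07 ± 0.25 with ABBV-075 over DMSO (edgeR adjusted p = 0.00547), and by 1.51 ± 0.10, 1.59 ± 0.09 and 1.54 ± 0.10 over IFNg alone (edgeR adjusted p = 8.73e-16, 3.68e-15 and 3.47e-13). It fell with ABBV-744 at 50 nM over DMSO (-0.51 ± 0.13, edgeR adjusted p = 0.00898). MKI67, the proliferation marker Ki-67, rose with each inhibitor over IFNg alone (0.46, 0.39 and 0.63) and with ABBV-075 over DMSO (0.67, edgeR adjusted p = 0.00347), from a transcript of 48.3% GC. With a correction for length the value for ABBV-744 at 50 nM over IFNg alone turned to -0.030.

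The condensin subunits SMC2, SMC4 and NCAPG rose and NCAPD2 fell. SMC2 stood without IFNg at 27.7, 27 and 32.9 CPM in DMSO, 86.1, 52.7 and 25.9 with ABBV-075, 22.9, 10.3 and 14.9 with ABBV-744 at 50 nM and 22.9, 16.3 and 24.4 at 500 nM. It stood with IFNg alone at 25.2, 18.5 and 24.7 CPM, 74, 65.5 and 63.6 with ABBV-075 added, 97.6, 56.2 and 88.5 with ABBV-744 at 50 nM and 93.6, 84.6 and 74.6 at 500 nM. ABBV-075 replicate 3 lay below the DMSO libraries while the other two of its group lay above them. NCAPD2 stood without IFNg at 178, 187 and 178 CPM in DMSO, 99.4, 118 and 154 with ABBV-075, 192, 179.7 and 186 with ABBV-744 at 50 nM and 176, 189 and 211 at 500 nM. In the 3 libraries with IFNg alone it had 176, 212 and 187 CPM, 95.2, 98.7 and 102 with ABBV-075 added, 77.6, 88.1 and 82.5 with ABBV-744 at 50 nM and 95.9, 80.8 and 82 at 500 nM. All 9 inhibitor libraries with IFNg lay above IFNg alone for SMC2 and below it for NCAPD2. With ABBV-744 at 50 nM over IFNg alone the log2 fold change was 1.84 ± 0.16 (SE, edgeR adjusted p = 1.59e-11) for SMC2, 1.87 ± 0.12 (SE, edgeR adjusted p = 1.89e-14) for SMC4, 1.47 ± 0.10 (SE, edgeR adjusted p = 9.54e-14) for NCAPG and -1.20 ± 0.09 (SE, edgeR adjusted p = 2.69e-12) for NCAPD2. SMC2 had the largest fall of the 45 with ABBV-744 at 50 nM over DMSO, -0.84 ± 0.20 (SE, edgeR adjusted p = 0.00459). With ABBV-075 over DMSO the same 4 subunits had 0.90, 1.33, 1.11 and -0.57 (edgeR adjusted p = 0.0347, 0.00091, 0.00253 and 0.00966).

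**Figure D2:**
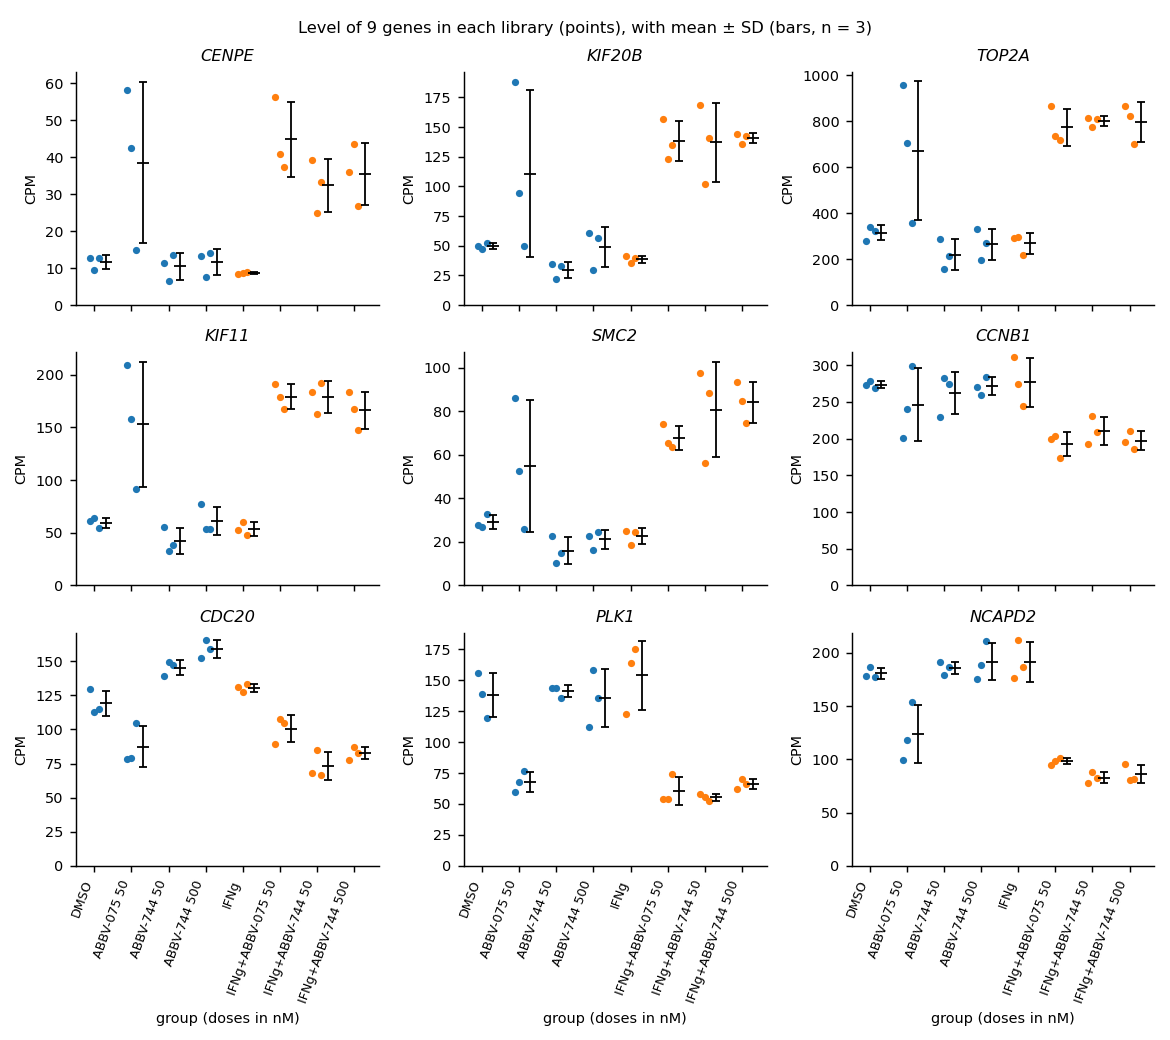
Level in CPM (vertical axis, from 0) of 9 genes in each of the 24 libraries by group (horizontal axis). Points are libraries in the order of replicates 1 to 3, blue without and orange with IFNg, and black bars give the mean ± SD of 3 libraries. CENPE, KIF20B, TOP2A, KIF11 and SMC2 are higher, and CCNB1, CDC20, PLK1 and NCAPD2 lower, in the 9 libraries with IFNg and an inhibitor than with IFNg alone, and ABBV-075 replicate 3 lies near DMSO for KIF20B and SMC2.

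The fold changes varied with the GC content of the transcripts. The longest transcripts of the 45 genes had a median GC content of 42.3%, beside 47.6% for the genes tested with ABBV-075, and a median length of 3725 bases, beside 3857. Across the 45 genes, Spearman's rho of the log2 fold change and GC content was -0.75 for ABBV-075 over DMSO, and -0.79, -0.86 and -0.83 for ABBV-075, ABBV-744 at 50 nM and ABBV-744 at 500 nM over IFNg alone. Across all genes tested it was -0.34, -0.38, -0.68 and -0.54. For ABBV-744 at 50 nM over DMSO the sign was opposite, with rho of 0.81 over 44 of the genes and 0.59 over all genes. With transcript length in place of GC content, rho across the 45 genes was 0.54 for ABBV-075 over DMSO. Over IFNg alone it was 0.50 for ABBV-075, and 0.54 and 0.56 for ABBV-744 at 50 and 500 nM. Across all genes tested, rho with length was 0.23, 0.20, 0.30 and 0.25 in that order. The genes in each correlation share their libraries and are not independent, so no p is given.

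Beside genes of like GC content, the low-GC mitosis genes had larger median changes. In the lowest quintile of GC, up to 40.2% in the fit of ABBV-744 at 50 nM over IFNg alone, lay 16 of the 45 genes, CENPE, KIF20B, SMC4 and TOP2A among them. With ABBV-744 at 50 nM over IFNg alone all 16 rose, with a median of 1.67, while 78.4% of the 2198 genes of that quintile rose, with a median of 0.78. Among the 1260 long genes of the quintile, of at least 4490 bases, 83.9% rose, with a median of 0.88. With ABBV-744 at 500 nM all 16 rose, with a median of 1.58 beside 0.63 for the quintile, of which 66.5% rose. With ABBV-075 over IFNg alone all 16 rose, with a median of 1.63 beside 0.59, where 62.5% of the quintile rose. With ABBV-075 over DMSO 14 of 16 rose, with a median of 1.12 beside 0.44, where 39.2% of the quintile rose. With ABBV-744 at 50 nM over DMSO 6 of the 15 tested fell, with a median of -0.46 beside -0.32, where 26.7% of the quintile fell. The 16 are described by these values only, since the genes were listed with earlier results known.

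**Figure D3:**
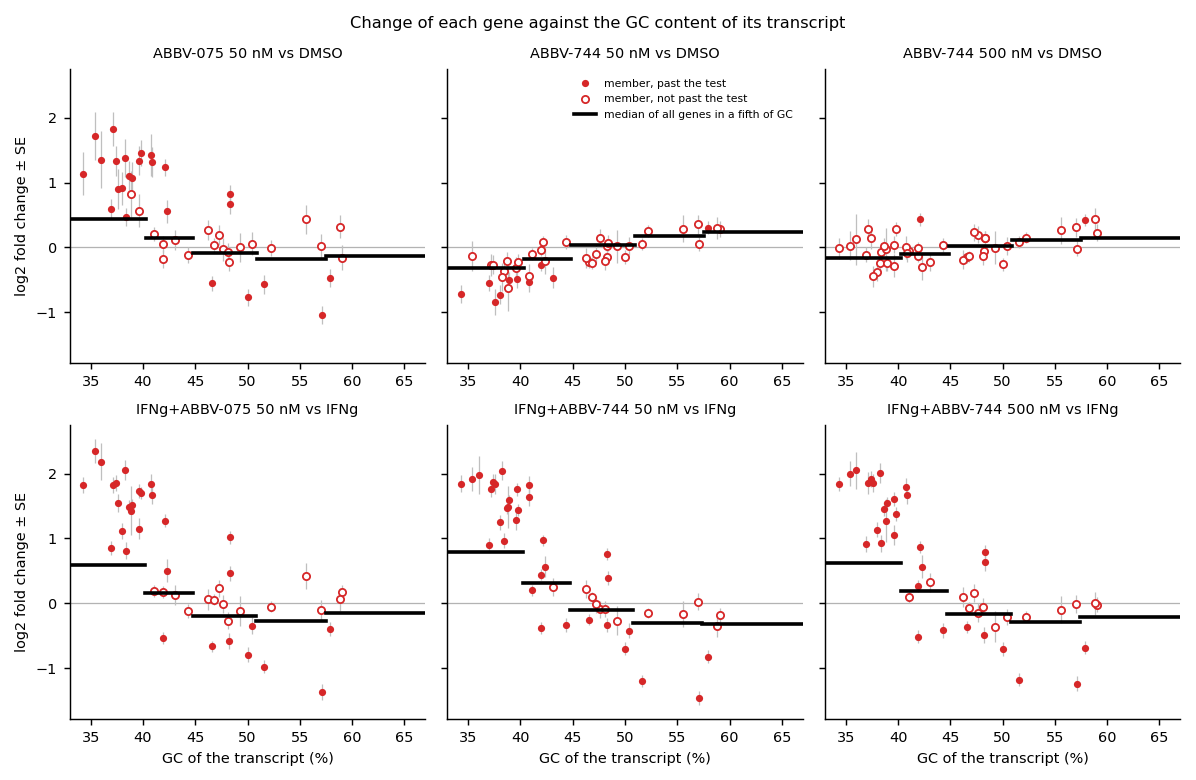
Log2 fold change with its SE (vertical axis) of each of the 45 genes against the GC content of its longest transcript in percent (horizontal axis) in 6 comparisons. Filled points passed the test, open points did not, and black bars give the median of all genes tested in each quintile of GC. In the 3 comparisons over IFNg alone the 16 genes in the lowest quintile all lie above the bar of that quintile, and for ABBV-744 at 50 nM over DMSO the slope has the opposite sign.

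The balance between low-GC and high-GC genes also differed between libraries. It was taken over 10425 other genes as the median log2 difference from DMSO of the lowest quintile of GC less that of the highest. The median over 3 libraries was 0.02 in DMSO, 0.62 with ABBV-075, -0.41 with ABBV-744 at 50 nM, -0.19 at 500 nM and -0.17 with IFNg alone. With IFNg it was 0.43 with ABBV-075, 0.90 with ABBV-744 at 50 nM and 0.66 at 500 nM. ABBV-075 replicate 3 had a balance of -0.03, beside 0.93 and 0.62 in the other libraries of its group. The same library gave 0.429% of its reads on genes to the 45 genes, beside 0.628% and 0.547%. Over all libraries 55.98% to 69.38% of reads were multimapping, and 11.95% to 16.78% were counted on genes. The share of multimapping reads was 66.2% to 69.4% in the ABBV-744 libraries at 50 nM without IFNg and 57.5% to 59.6% in those with it. At 500 nM the ranges overlapped, with 63.97% to 68.05% without IFNg and 64.26% to 66.26% with it. The part of these library differences in the changes of the 45 genes was not tested.

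When a curve of GC content was taken out of each library, the split of the genes remained in part. For ABBV-744 at 50 nM over IFNg alone, 20 genes were higher and 8 lower after the correction, beside 16.3% and 18.1% of all genes, of which 19 and 7 were also called without it. The log2 fold change became 0.96 for CENPE, 0.81 for KIF20B, 1.34 for TTK, 0.92 for TOP2A and -1.12 for PLK1, and all 5 passed the test. CDK1, CCNA2, KIF23 and NUF2 no longer passed it as rises (0.06, 0.08, 0.24 and 0.80), nor KIF20A and KIF2C as falls (-0.20 and -0.21). BUB3 turned from 0.20 to -0.25 and passed the test as a fall. CCNB1 moved further down, from -0.38 to -0.74.

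For ABBV-744 at 500 nM over IFNg alone the correction left 21 higher and 9 lower, beside 17.4% and 19.4% of all genes, and CCNA2, KIF23 and NUF2 lost their calls (0.03, 0.36 and 0.74). For ABBV-075 over IFNg alone it left 26 higher and 6 lower, beside 26.8% and 29.2% of all genes, with KIF23, KIF2C and CDC20 no longer past the test (0.33, -0.08 and -0.17). AURKB, CDC25B, BIRC5, CENPA and TPX2 passed it as rises after the correction alone (0.69, 0.39, 0.22, 0.41 and 0.21). For ABBV-075 over DMSO 18 were higher and 5 lower, beside 21.6% and 23.5% of all genes, and CDK1, MAD2L1, SMC2 and KIF18A lost their calls (0.17, 0.09, 0.45 and 0.88), while AURKB and INCENP passed the test as rises after it alone (0.62 and 0.49, edgeR adjusted p = 0.0283 and 0.0143). For ABBV-744 at 50 nM over DMSO 1 was higher and 3 lower, beside 5.6% and 5.16% of all genes. There 8 of the 10 uncorrected calls were lost, and of the 9 falls ECT2 and SMC2 kept theirs (-0.42 and -0.52). After the correction rho across the 45 genes was still -0.53 for ABBV-075 over DMSO and -0.61, -0.65 and -0.65 for ABBV-075 and the 2 ABBV-744 doses over IFNg alone, where it lay between -0.03 and -0.02 across all genes.

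**Figure D4:**
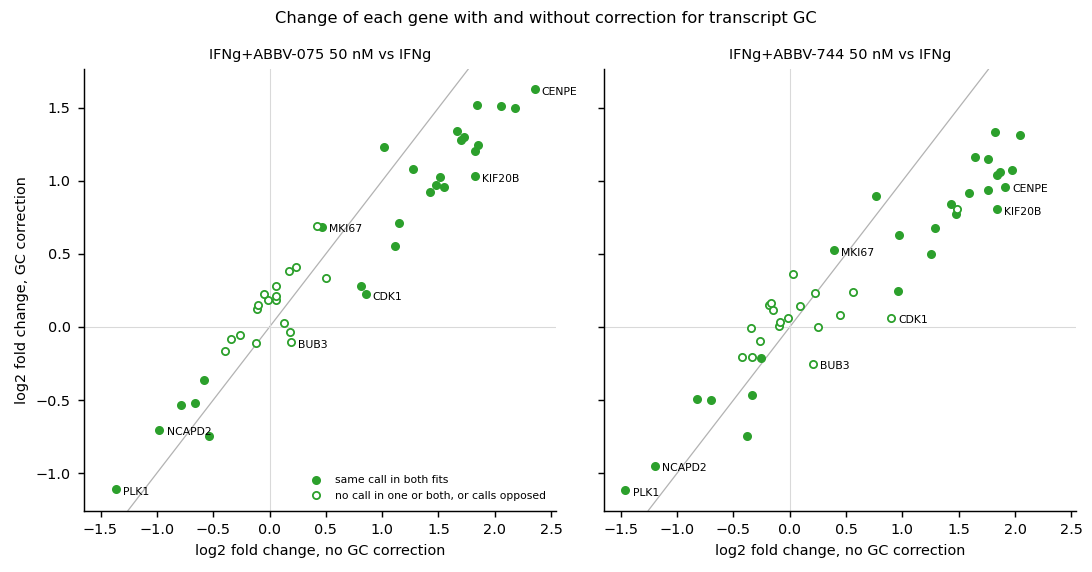
Log2 fold change of the 45 genes over IFNg alone with the GC correction (vertical axis) against that without it (horizontal axis), for ABBV-075 (left) and ABBV-744 at 50 nM (right), with a line of equality. Filled points had the same call in both fits. CENPE and KIF20B lie below the line but above 0, PLK1 and NCAPD2 stay below 0 in both panels, and BUB3 crosses 0.

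Whether IFNg changed the effect of an inhibitor was tested as the effect over IFNg alone less that over DMSO, in 1 fit over 4 groups. For ABBV-744 at 50 nM the difference passed the test for 35 of 45 genes, 24 upwards and 11 downwards, beside 25% and 26.5% of all genes. For 500 nM it was 24 and 8, beside 18.5% and 15%. KIF20B, which fell without and rose with IFNg at 50 nM, differed by 2.53 ± 0.22 (SE, edgeR adjusted p = 9.8e-10), and SMC2 by 2.65 ± 0.29 (SE, edgeR adjusted p = 2.42e-08). PLK1 differed by -1.54 ± 0.16 (SE, edgeR adjusted p = 1.44e-08), NCAPD2 by -1.29 ± 0.13 (SE, edgeR adjusted p = 5.3e-09) and CDC20 by -1.16 ± 0.14 (SE, edgeR adjusted p = 1.05e-07). With the GC correction 17 upward and 6 downward differences were called for 50 nM, beside 9.37% and 11.1% of all genes, of which 16 and 5 were also called without it, and the value was 1.12 for KIF20B, 1.56 for SMC2 and -0.98 for PLK1. CDK1, CCNA2, BUB1B, MAD2L1, NUF2, CENPE, KIF18A and KIF23 no longer passed as upward differences, nor CDC25B, UBE2C, INCENP, BIRC5, KIF20A and KIF2C as downward ones. For 500 nM the correction left 16 upward and 6 downward, beside 7.58% and 9.19% of all genes, of which 16 and 5 were also called without it. There CDK1, CCNA2, BUB1, BUB1B, MAD2L1, NUF2, KIF18A and KIF23 lost their upward calls and UBE2C, BIRC5 and KIF20A their downward ones.

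For ABBV-075 none of the 45 differences passed the test by edgeR or DESeq2, beside 0.0173% upwards and 0.0173% downwards over all genes, and 2 had an unadjusted p of at most 0.05. The differences ran from -0.42 for NCAPD2 to 0.81 for KIF18A, and for 35 of the 45 the approximate 95% interval, from the SE and a normal distribution, lay within 1 of 0 on the log2 scale. Without ABBV-075 replicate 3 none passed the test either. Libraries with and without IFNg differ in the labelled treatment, and whether they were made together is not given, so a preparation effect and IFNg cannot be told apart here.

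**Figure D5:**
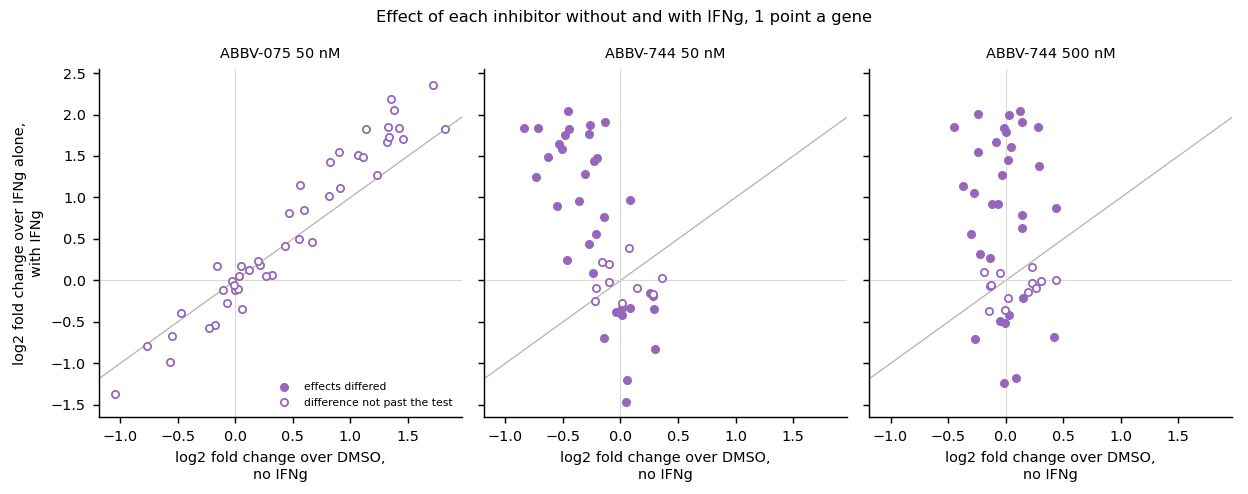
Log2 fold change of each gene over IFNg alone, with IFNg (vertical axis), against that over DMSO, without IFNg (horizontal axis), for ABBV-075 at 50 nM and ABBV-744 at 50 nM and 500 nM, with a line of equality. Filled points are genes whose 2 effects differed at an adjusted p of at most 0.05. No point is filled for ABBV-075, whose differences run from -0.42 to 0.81. For the ABBV-744 doses 35 and 32 genes differed, and the points spread along the vertical axis. KIF18A, 1 of the 35, was not tested at 50 nM over DMSO and has no point in that panel.

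The doses of ABBV-744 did not differ past the test for any of the 45 genes, without IFNg or with it, by edgeR or DESeq2, where 0% and 0.0274% of all genes passed upwards and downwards without IFNg and 1.41% and 0.29% with it. At an unadjusted p of at most 0.05 there were 10 and 5 genes. These fits did not use replicate numbers. With a replicate block in the edgeR fit, 8 genes were higher at 500 nM without IFNg and 0 with it. With the block and GC correction, 4 were higher without IFNg and 1 with it. Without IFNg the difference of 500 nM from 50 nM reached 0.71 ± 0.21 for KIF20B, and its approximate 95% interval lay within 1 of 0 on the log2 scale for 42 of 45 genes. With IFNg all 45 intervals did so, and the largest difference was 0.41 ± 0.19 for INCENP.

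At 50 nM without IFNg, the treatments with ABBV-075 and ABBV-744 differed for 29 of the 45 genes, with 25 higher and 4 lower with ABBV-075, beside 21.4% and 19.4% of all genes. Without ABBV-075 replicate 3, 27 were higher and 8 lower. ASPM was higher by 2.13 ± 0.30 (SE, edgeR adjusted p = 0.00101) and KIF20B by 1.89 ± 0.40 (SE, edgeR adjusted p = 0.00497). TTK, CENPF, CENPE, KIF14, KIF11, KIF18A, SMC2 and ANLN followed, with 1.89, 1.88, 1.88, 1.86, 1.85, 1.83, 1.77 and 1.71 in that order. PLK1 had -1.07 ± 0.13 (SE, edgeR adjusted p = 0.000529). With IFNg at the same dose, 11 were higher and 1 lower with ABBV-075, beside 16.7% and 17% of all genes. AURKB (0.66 ± 0.19), CENPE (0.51 ± 0.14), CDC20 (0.51 ± 0.11), INCENP (0.48 ± 0.18) and CDC25B (0.44 ± 0.10) led those higher with ABBV-075, followed by BUB1, ANLN, NUSAP1 and CENPA (0.38, 0.34, 0.33 and 0.32), and AURKA was lower (-0.34 ± 0.08, edgeR adjusted p = 0.00142). With the GC correction 21 were higher and 6 lower with ABBV-075 without IFNg, beside 16.4% and 17.9% of all genes, of which 18 and 4 were also called without it. KIF18A, NUF2, NDC80, MAD2L1, BUB1B, KIF23 and BUB3 lost their calls there (0.99, 0.80, 0.28, 0.18, 0.36, 0.47 and -0.12). With IFNg the correction left 13 higher and 1 lower, beside 16.4% and 18.3% of all genes, of which 10 and 1 were also called without it, and INCENP lost its call (0.29, edgeR adjusted p = 0.184). Without the correction, for the 33 others with IFNg the interval of the difference lay within 1 of 0 on the log2 scale. KIF11, for one, differed by 0.05 ± 0.09. The time of ABBV-744 treatment is not known, so compound and time cannot be told apart.

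A wider list of 105 other mitosis genes, of which 101 symbols were in the files, was counted in the same way. Of the 100 tested, 56 rose and 14 fell with ABBV-744 at 50 nM over IFNg alone, with a median of 0.41. With 500 nM, 53 rose and 6 fell, and with ABBV-075, 52 rose and 8 fell, with medians of 0.34 and 0.37. With ABBV-075 over DMSO 38 of 101 rose and 3 fell. Of 41 DNA replication genes 10 rose and 9 fell with ABBV-744 at 50 nM over IFNg alone, with a median of -0.04, 5 rose and 9 fell with 500 nM, and 8 rose and 12 fell with ABBV-075. With ABBV-075 over DMSO 7 rose and 6 fell. Both lists are read beside the shares of all genes given above, and the difference between the lists was not tested. Their counts are without the GC correction, and the GC content of the lists is not given here.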

How the data were processed

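RNA from 24 HepG2 libraries, 3 for each of 8 treatments, was depleted of ribosomal RNA and sequenced as stranded libraries. The authors ran CASAVA 1.8.2, Trimmomatic 0.33 and STAR 2.7.1 (hg38), per the submitters' processing notes, and deposited whole-number read counts per gene, from which column 4 (1 strand) was used here. The annotation behind these counts is not given in the sources used here. The libraries held between 2978982 and 4304103 counts on genes, and rows of unassigned reads were left out of library sizes and tests. Samples were grouped by their labels. Each comparison was fitted on its own libraries with edgeR 4.0.16 in R 4.3.3 (quasi-likelihood test, filterByExpr, TMM, Benjamini-Hochberg adjustment over all genes tested), and IFNg dependence as an interaction over 12 libraries. The study's tool, DESeq2 (1.42.0 here), was an alternative, as were other scalings, filters, both strands, corrections for GC content and length, a replicate block and leaving out each library. The GC correction took out of each library a lowess curve (span 0.3) of its log2 deviations against the GC content of the longest GENCODE release 44 transcript.

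The 45 genes and the other lists were chosen with earlier results of these data known. Each library is given for the most abundant gene of each role and the 2 lowest and 2 highest in GC content, and up to 10 genes with the largest called change are named per comparison. CDK1, UBE2C, PLK1, SMC2 and NCAPD2 were added after their values were seen. DESeq2 and edgeR, plain, with the replicate block, the GC correction or the GC and length correction, were run on simulated data. The other alternatives were not. The simulated GC trend did not vary between libraries of a group. All replicate pairs differed by more than sampling noise.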

Additional observations from a re-analysis of the deposited data

Results flagged for a closer look

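The effect of ABBV-744 with IFNg differed from that without it, by edgeR's test of the interaction over 4 groups, for 35 of the 45 genes at 50 nM and for 32 at 500 nM. At 50 nM the effect with IFNg was higher by 2.65 on the log2 scale for SMC2, 2.53 for KIF20B, 2.47 for KIF14, 2.40 for KIF18A and 2.24 for TTK. It was higher by 2.21 for KIF11, 2.15 for CENPF, 2.10 for SMC4, 2.08 for NUF2 and 2.06 for TOP2A. At 500 nM the difference was 2.32 for SMC2, 2.27 for KIF14, 1.99 for CENPE, 1.94 for KIF18A and 1.87 for KIF20B. It was 1.81 for TOP2A, 1.81 for TTK, 1.79 for SMC4, 1.77 for CENPF and 1.60 for ASPM. These are the 10 largest called differences per dose, and both doses share the DMSO and IFNg libraries. With the GC correction KIF18A and NUF2 no longer passed the test at 50 nM (1.18 and 1.15, edgeR adjusted p = 0.141 and 0.11), nor KIF18A at 500 nM (1.01, edgeR adjusted p = 0.177). The balance of low-GC against high-GC genes moved with them, from a median of -0.41 to 0.90 at 50 nM and from -0.19 to 0.66 at 500 nM, and its part in the differences was not tested.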

How the results depend on the processing

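The counts of rises and falls over IFNg alone moved by less than 1.5 times under each of the 12 alternatives run. With ABBV-744 at 50 nM against DMSO, where 1 gene rose and 9 fell, 0 rose with DESeq2, library size only, all 24 libraries in the fit, the replicate block, and the GC correction with the block. In that comparison 4 fell with all 24 libraries, 3 with the GC correction, 2 with the GC correction and block, and 4 with the GC and length correction. With 500 nM against DMSO, 4 rose in place of 2 with the GC correction, with or without the block, and with GC and length, and 1 fell in place of 0 with library size only and with each GC or length correction. IFNg against DMSO gave 2 falls in place of 0 with library size only. For 500 nM against 50 nM of ABBV-744, 1 gene was higher in place of 0 with no filter on low counts, 8 with the replicate block and 4 with the block and GC correction, and with IFNg 1 was higher with the block and GC correction. For ABBV-075 against ABBV-744 at 50 nM, 7 were lower in place of 4 with all 24 libraries. With IFNg, 5 were higher in place of 11 with library size only, 4 with all 24 libraries and 19 with the GC correction and block, and in place of 1, 4 were lower with library size only and 2 with the block or the length correction. Of the differences by IFNg, 11 downward ones for 50 nM became 6 with DESeq2, 4 with library size only, 6 with the GC correction, with or without the block, 7 with length and 6 with GC and length. The 8 for 500 nM became 4 with library size only, 5 with no filter and 5 with the length correction. The cause was not tested. Of 240 calls of single genes, 55 were lost and 3 reversed with the GC correction, 21 were lost with DESeq2 and 6 with the block.

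BUB3 with ABBV-744 at 50 nM over IFNg turned to -0.25 with the GC correction, with or without the block, -0.083 with length and -0.32 with both, and MKI67 there to -0.030 with length. BUB3 between ABBV-075 and ABBV-744 at 50 nM turned to -0.12 with the GC correction, -0.12 with the block added and -0.21 with GC and length. In the difference by IFNg at 50 nM, CDC25B turned to 0.084 with the GC correction, 0.080 with the block added and 0.12 with GC and length, and BIRC5 to 0.043 with GC and length. At 500 nM BIRC5 turned to 0.054 in that fit.

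Leaving out 1 library at a time reversed no call. For ABBV-075 against DMSO it gave 14 to 24 rises and 3 to 7 falls, with 3 falls without ABBV-075 replicate 2. For ABBV-744 at 50 nM against DMSO it gave 0 to 3 rises and 4 to 12 falls, with 3 rises without ABBV-744 replicate 1, 0 without ABBV-744 replicate 3 or DMSO replicate 2 or 3, and 4 falls without ABBV-744 replicate 3 or DMSO replicate 2. For 500 nM it gave 2 to 7 rises and 0 to 2 falls, with 7 and 1 without ABBV-744 replicate 2 and 2 falls without replicate 1. IFNg against DMSO gave 0 to 2 rises and 0 to 1 falls, with 0 rises without DMSO replicate 3, and 2 and 1 without IFNg replicate 1. Over IFNg alone there were 21 to 24 rises and 7 to 8 falls with ABBV-075, 23 to 24 and 8 to 9 with ABBV-744 at 50 nM, and 21 to 23 and 8 to 9 at 500 nM. Between doses 0 to 1 were higher and 0 lower, with 1 without ABBV-744 500 nM replicate 2, and with IFNg likewise 0 to 1 and 0, with 1 without IFNg and ABBV-744 500 nM replicate 3. ABBV-075 against ABBV-744 gave 17 to 27 higher and 3 to 8 lower, with 8 lower without ABBV-075 replicate 3. With IFNg it gave 7 to 10 and 1 to 2, with 7 higher without ABBV-075 replicate 2 or ABBV-744 replicate 3, and 2 lower without ABBV-075 replicate 1 or ABBV-744 replicate 2. Differences by IFNg were 0 to 2 upward and 0 downward for ABBV-075 (2 without ABBV-075 replicate 1), 23 to 25 and 8 to 11 for ABBV-744 at 50 nM, and 20 to 24 and 4 to 8 at 500 nM, with 5 downward without ABBV-744 replicate 2, without IFNg and ABBV-744 replicate 2 or without DMSO replicate 2, and 4 without DMSO replicate 3.

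Replicate numbers are shared between groups, and the main fits did not pair the libraries by them. In no comparison did every same-numbered pair correlate above 0.1, which cannot show that the libraries were unpaired. Between ABBV-744 at 500 nM and at 50 nM without IFNg the correlations were 0.25, 0.33 and 0.06. KIF18A lay below the filter on low counts with ABBV-744 at 50 nM against DMSO and was not tested there.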
